A study of Mus musculus with 48 samples.

Results

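The genes Tcf7, Lef1, Bach2, Satb1, Bcl6 and Foxp1 encode DNA-binding proteins that set or hold the naive and memory states of T cells. They were taken by symbol, as all rows of both deposited tables named for one of them, with no threshold on a measured value. In the table of primary CD4+ T cells they made up 6 of 10219 named genes and 28 of 17272 tag clusters. In the table of the DO11.10 T hybridoma they made up 5 of 10098 named genes and 13 of 18025 clusters, since Satb1 had no row there and is not analysed in that system.

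Transcription starts were measured by CAGE, which sequences a short tag from the 5′ end of each capped RNA, so that a value counts 5′ ends and needs no correction for transcript length. The 22 libraries of primary CD4+ T cells, from BALB/cCrSlc mice, received the anti-CD3 antibody 2C11 at 0, 10, 100, 1000 or 10000 ng/ml, at each dose with PD-1 engaged and with PD-1 not engaged. The 26 libraries of the DO11.10 hybridoma (strain given as BALB/c x AKR/J), a single fused cell line whose receptor sees an ovalbumin peptide, received that peptide (pOVA) at 0, 1, 10, 100, 1000 or 10000 nM, again with and without engagement. A group held 2 libraries, or 3 at 10000. How PD-1 was engaged and for how long the cells were stimulated was not stated in the labels. The labels do not say whether the libraries of a group came from separate mice or cultures, so p-values measure the spread between these libraries, which may be technical.

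TCF1 (the product of Tcf7) and LEF1 are related factors that bind the same short DNA motif, recruit beta-catenin or TLE corepressors. They sustain the naive state and the self-renewal of memory T cells. BACH2 pairs with small MAF proteins and competes with AP-1 for its sites at effector genes. BCL6 is a transcriptional repressor that promotes the follicular helper and memory precursor fates and is opposed by Blimp-1 (Prdm1). FOXP1 is a forkhead repressor that keeps naive T cells quiescent. SATB1 is a chromatin organiser of the T lineage. Stimulation through the T cell receptor is known to lower several of these factors as cells leave the naive state, and PD-1 is an inhibitory receptor that dampens that signal.

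Among the clusters named for each gene, Lef1 and Foxp1 had a pair of abundant starts whose shares differed between stimulated and resting CD4+ cells. The DNA before these starts is shown to identify them. Whether this DNA bears on the change in start use was not tested. In mm9, the build of the deposited tables, the Lef1 starts were the clusters at chr3:130813220-130813244 and chr3:130815707-130815710 on the plus strand. The Foxp1 starts were the clusters at chr6:99216396-99216529 and chr6:98978247-98978343 on the minus strand. The sequences are 250 bases before the matching RefSeq starts in GRCm38.p6, at chr3:131110073-131110322, chr3:131112541-131112790, chr6:99266516-99266765 and chr6:99028299-99028548. No position was converted between builds, and starts were matched by spacing alone: the Lef1 clusters lay 2466 to 2487 bases apart by their edges against 2468 bases in RefSeq, and the Foxp1 clusters 238149 to 238186 bases apart against 238217. Capitals mark motif matches.
Lef1 upstream start: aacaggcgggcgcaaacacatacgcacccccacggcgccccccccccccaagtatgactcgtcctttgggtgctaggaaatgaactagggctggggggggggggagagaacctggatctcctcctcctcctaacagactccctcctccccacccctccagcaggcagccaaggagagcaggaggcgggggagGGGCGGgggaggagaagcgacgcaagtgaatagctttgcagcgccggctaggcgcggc
Lef1 downstream start: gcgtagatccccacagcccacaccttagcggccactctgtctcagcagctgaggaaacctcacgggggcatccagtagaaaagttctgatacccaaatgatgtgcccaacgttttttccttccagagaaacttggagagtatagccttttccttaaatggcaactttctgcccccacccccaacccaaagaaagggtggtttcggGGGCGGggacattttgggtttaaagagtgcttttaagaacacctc
Foxp1 upstream start: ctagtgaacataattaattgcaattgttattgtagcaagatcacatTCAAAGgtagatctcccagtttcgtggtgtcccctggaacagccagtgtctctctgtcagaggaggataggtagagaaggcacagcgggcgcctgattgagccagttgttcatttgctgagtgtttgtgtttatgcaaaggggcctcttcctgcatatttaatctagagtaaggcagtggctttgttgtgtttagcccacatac
Foxp1 downstream start: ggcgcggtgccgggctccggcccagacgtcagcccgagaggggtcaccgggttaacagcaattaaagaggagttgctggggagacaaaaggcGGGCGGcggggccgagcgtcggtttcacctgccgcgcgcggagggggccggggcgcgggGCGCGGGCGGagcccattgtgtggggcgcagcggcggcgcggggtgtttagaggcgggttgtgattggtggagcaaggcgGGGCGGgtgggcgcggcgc
Of 7 motifs searched on both strands, the GC box GGGCGG was in 3 of the 4 windows (32.7% of 32851 RefSeq promoter windows of the same length hold it), the TCF/LEF motif CTTTGA in 1 (13.8%) and the EGR motif GCGNGGGCG in 1 (4.7%). The TCF/LEF match lay in the Foxp1 upstream window, on the opposite strand, 204 bases before the start. In the Foxp1 downstream window the EGR match overlapped a GC box. The TATA box TATAAA (12.4%), the forkhead motif TGTTTAC (3.17%), the AP-1 motif TGANTCA (6.75%) and the NF-kB motif (1.41%) had no match, which says only that those letters are absent from these windows. The upstream Lef1 window was 66.4% G or C and the downstream one 50.8%, while for Foxp1 the upstream window was 45.2% and the downstream one 74%.

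Levels are in RPM, tag counts scaled to the same library total. Libraries held 4.42 to 22.8 M tags in the CD4 set, where 1 tag was worth 0.0438 to 0.226 RPM, and 7.79 to 19.7 M tags in the hybridoma set, where it was worth 0.0507 to 0.128 RPM. Changes are differences of log2(RPM + 1) from limma, and a gene was called when its p, adjusted by Benjamini and Hochberg over all genes of the table, was under 0.05. Of 14 T cell markers 13 had rows in the CD4 table, Cd4 itself at 80.8 to 159 RPM and Cd8a with none; 11 had rows in the hybridoma table, with none for Cd4, Cd8a or Cd8b1. Every listed cluster reached at least 3.002 RPM (CD4) or 3.01 RPM (hybridoma) in some library, so a missing row can mean a low level rather than none. B cell markers had rows in both sets, 15 of 19 in CD4 and 18 of 19 in the hybridoma, where some were faint (median 0.84 RPM for Ebf1 and 0.635 for Cr2). None of those 15 or 18 was at 0 in any library. In the hybridoma they set apart the second of the 2 libraries at dose 0: their summed level was 1251 RPM in the engaged library of that number and 1515 RPM in the unengaged one, against 364 and 129 RPM in the libraries of number 1, and 146 to 376 RPM in all 22 stimulated libraries. Among 11 myeloid markers only Cst3 had a row in either table, and NK markers had 3 of 8 rows in CD4 and 1 of 8 in the hybridoma. In bulk RNA, fewer cells of a type and less RNA per cell cannot be told apart.

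In resting CD4+ cells without engagement Tcf7 was the most abundant of the 6, at 718 ± 23.6 RPM (SD, n = 2). It had rank 140 of 10219 genes. Satb1 followed at 296 ± 16.4 RPM and Lef1 at 244 ± 5.69, then Bach2 at 95.1 ± 7.10 and Foxp1 at 86.0 ± 1.57, with Bcl6 lowest at 16.8 ± 1.18 RPM. The libraries of neighbouring genes in this order did not overlap. In the resting hybridoma the order differed: Tcf7 led at 241 ± 34.8 RPM, rank 499 of 10098, and Bcl6 (24.1 ± 25.96 RPM), Lef1 (17.1 ± 0.785), Foxp1 (6.39 ± 1.70) and Bach2 (3.13 ± 4.16) followed. There the 2 Bcl6 libraries, at 5.75 and 42.5 RPM, spanned the Lef1 libraries and overlapped those of Foxp1 (7.60 and 5.19 RPM), and the Bach2 libraries, at 0.190 and 6.07 RPM, overlapped those of Foxp1.

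All 6 genes fell in CD4+ cells at the highest anti-CD3 dose without engagement, in a comparison where 67.7% of all genes tested were called. Of all genes 40.1% were lower, and the median gene changed by -0.15. Tcf7 fell most. Without engagement it stood at 701 and 734 RPM at dose 0, 708 and 714 at 10 ng/ml, 435 and 412 at 100 ng/ml, 123 and 113 at 1000 ng/ml, and 82.8, 85.02 and 95.8 RPM at 10000 ng/ml. The groups at 10000 ng/ml and dose 0 were far apart, with a log2 difference of -3.02 (SE 0.08, limma adjusted p = 2.84e-16), and the step between 100 and 1000 ng/ml was the widest of the series. The paralogue Lef1 followed the same order of doses at a smaller size: 240.3 and 248 RPM at dose 0, 192 and 221 at 10 ng/ml, 150.5 and 154 at 100 ng/ml, 70.6 and 70.6 at 1000 ng/ml, and 60.1, 57.8 and 57.2 RPM at 10000 ng/ml. Its change at the top dose was -2.05 (SE 0.09, limma adjusted p = 3.05e-13).

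**Figure D1:**
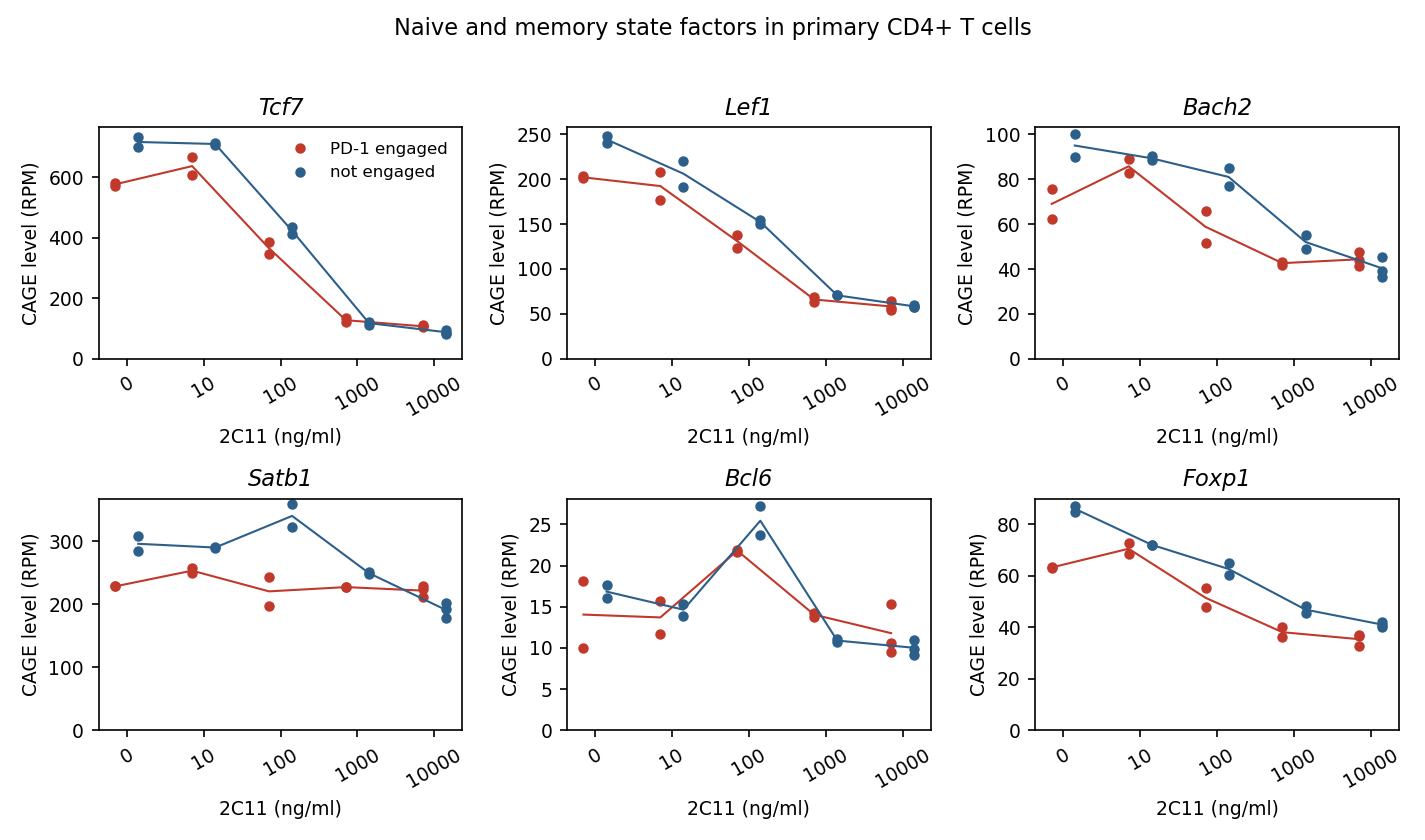
RPM of each of the 6 genes in every CD4 library (y axis, linear scale) by 2C11 dose in ng/ml (x axis). Engaged and unengaged libraries are in separate colours, 1 point per library. Tcf7 drops to between 82.8 and 95.8 RPM at 10000 ng/ml without engagement, while Satb1 stays between 178 and 358 RPM in all 22 libraries.

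Among the repressors, Bach2 started to fall later. It held 90.0 and 100.1 RPM at dose 0, 88.5 and 90.2 at 10 ng/ml, 84.9 and 77.2 at 100 ng/ml, 55.0 and 49.1 at 1000 ng/ml, and 39.1, 36.4 and 45.3 RPM at 10000 ng/ml, all without engagement. It was not called at 100 ng/ml (-0.23, limma adjusted p = 0.195) and was called at 10000 ng/ml (-1.22, SE 0.11, adjusted p = 1.55e-08). Foxp1, by contrast, was lower in both libraries at each dose above 0: 84.9 and 87.1 RPM at dose 0, 72.0 and 72.0 at 10 ng/ml, 60.3 and 64.9 at 100 ng/ml, 45.5 and 48.2 at 1000 ng/ml, and 40.1, 41.1 and 41.9 RPM at 10000 ng/ml. It was not called at 10 ng/ml (-0.25, adjusted p = 0.959) and fell by 1.05 at 10000 ng/ml (SE 0.08, adjusted p = 1.5e-09). The repressor Bcl6 had an intermediate maximum. Without engagement its 2 libraries at 100 ng/ml, at 23.7 and 27.2 RPM, lay above those at dose 0 (16.01 and 17.7 RPM) and at 10 ng/ml (13.9 and 15.4 RPM), and the values then dropped to 10.8 and 11.03 RPM at 1000 ng/ml and 11.005, 9.91 and 9.16 RPM at 10000 ng/ml. The difference at 100 ng/ml was 0.57 and narrowly missed the threshold (limma adjusted p = 0.0585), while that at 10000 ng/ml was -0.70 (SE 0.20, adjusted p = 0.00408). Over 31 alternatives the difference at 100 ng/ml ranged from 0.43 to 0.66, and most did not call it.

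With engagement the same comparison at 100 ng/ml, 21.9 and 21.7 RPM against 9.97 and 18.1 RPM at dose 0, gave Bcl6 a difference of 0.65 (limma adjusted p = 0.0495; 13.6% of all genes were called). Leaving out the engaged dose 0 library of number 1, which held 9.97 RPM, brought it to 0.25, and edgeR and DESeq2 did not call it (adjusted p = 0.0579 and 0.0539). Over 31 alternatives it ranged from 0.25 to 1.06, and most of them lost the call. Satb1 changed least of the 6. Without engagement it stood at 284 and 308 RPM at dose 0, 289 and 292 at 10 ng/ml, 322 and 358 at 100 ng/ml, 248 and 251 at 1000 ng/ml, and 178, 193 and 202 RPM at 10000 ng/ml. Its change at the top dose, -0.63 (SE 0.08, limma adjusted p = 1.35e-06), was the smallest of the 6, and at 100 ng/ml its libraries were above those at dose 0 without being called (0.20, adjusted p = 0.11).

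By dose, 3 genes were called at 100 ng/ml (Tcf7 at -0.76, Lef1 at -0.68 and Foxp1 at -0.45; 26.4% of all genes were called) and all 6 at 1000 ng/ml (61%), with Bcl6 at -0.58 and Satb1 at -0.24 nearest the threshold. At 10 ng/ml limma called no gene of the table, members included; 2 of the 6 had an unadjusted p under 0.05. As a description, the dose at the midpoint of the log2 change, with the range on leaving out single libraries, was 230.5 ng/ml (212 to 248) with engagement and 256 (248 to 266) without for Tcf7. It was 187 ng/ml (161 to 213) with engagement and 206 (201 to 212) without for Lef1, and 188 (109.9 to 260.3) and 150.3 (114 to 186) for Foxp1 in the same order. For Bach2 it was 152 ng/ml (74.9 to 256) with engagement and 409 (348 to 503) without. Without engagement the Bach2 range lay above those of the other 3 genes, and with engagement it overlapped them.

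With PD-1 engaged, 4 of the 6 were called at 10000 ng/ml against engaged dose 0, where 64.8% of all genes were called (26.4% lower) and the median gene changed by 0.12. Tcf7 changed by -2.42, Lef1 by -1.78, Foxp1 by -0.82 and Bach2 by -0.62, each below the median gene. In the same comparison 7 of 15 B cell markers were higher and 1 lower (median 0.51), and 1 of 13 T cell markers was higher and 9 lower (median -0.32); their part was not tested. Bcl6 (-0.21, limma adjusted p = 0.369) and Satb1 (-0.04, adjusted p = 0.656) were not called. For Satb1 that depended on the scaling, since quantile normalization called it lower (-0.30, limma adjusted p = 0.00161). The engaged Satb1 libraries held 212, 225 and 229 RPM at 10000 ng/ml and 229 and 229 RPM at dose 0, against 178, 193 and 202 RPM and 284 and 308 RPM in the unengaged ones, so the top doses lay nearer each other than the resting levels did.

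**Figure D2:**
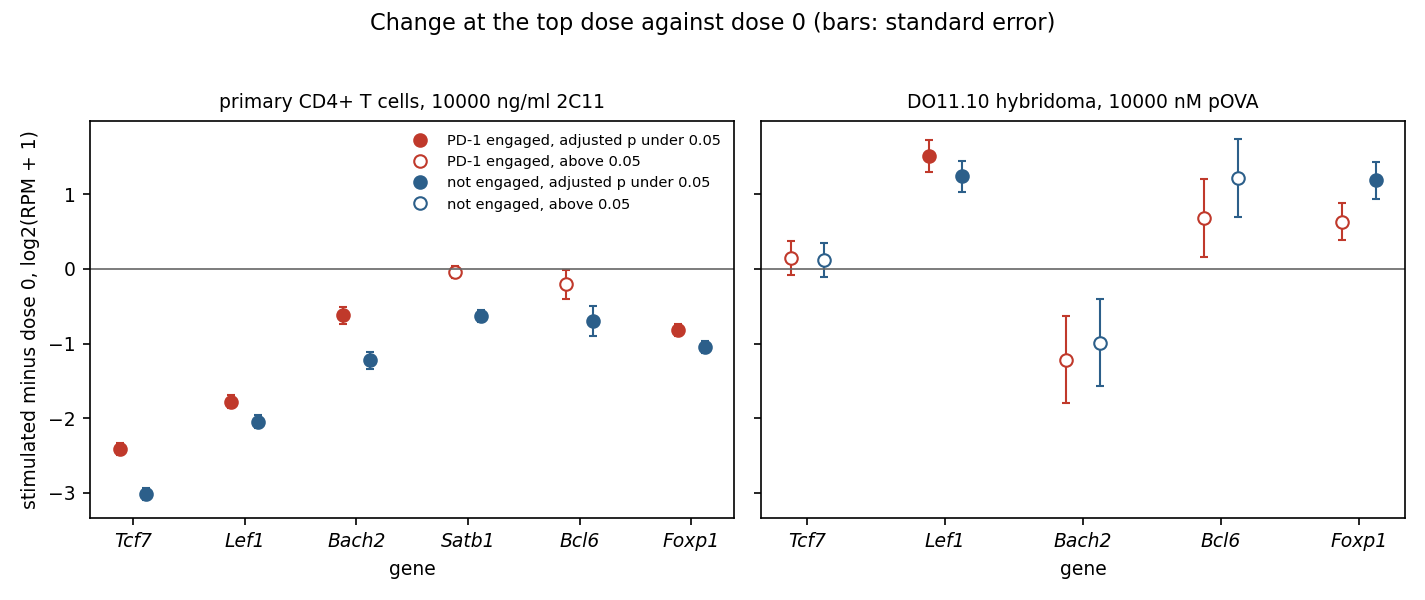
Log2 difference of RPM + 1 between the top dose and dose 0 for each gene (x axis), with PD-1 engaged and not engaged, in CD4 cells and in the hybridoma; filled points were called by limma and bars are standard errors. In CD4 cells all 6 points without engagement lie below 0, from -3.02 for Tcf7 to -0.63 for Satb1, while in the hybridoma Lef1 (1.24) and Foxp1 (1.19) lie above it.

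Within genes, start sites responded unequally in CD4+ cells. Of the 28 clusters of the 6 genes, 24 were lower at 10000 ng/ml without engagement and none was higher (over all clusters 64.5% were called and 38.2% were lower). For 14 of them, 7 up and 7 down, limma diffSplice called a change unlike that of the gene's other clusters (38.3% of all clusters of multi-start genes). The log2(RPM + 1) scale understates changes of faint clusters, which enters these comparisons. Among the 14, edgeR on the tags did not call Tcf7 chr11:52095804-52095804 (0.56, adjusted p = 0.487), Bach2 chr4:32325707-32325764 (-0.12, adjusted p = 0.753) or the upstream Foxp1 start. It also called some clusters that diffSplice did not. The upstream Lef1 start printed above fell to 12.2 ± 0.67 RPM at 10000 ng/ml (SD, n = 3), against 123 ± 6.3 RPM at dose 0 (SD, n = 2), a change of -3.24 (SE 0.15, adjusted p = 1.56e-12). The downstream start fell to 37.9 ± 1.4 RPM, against 95.2 ± 9.0 RPM, a change of -1.31 (SE 0.11, adjusted p = 4.08e-09). The upstream start therefore gave 20.9% ± 1.6 of tags in clusters named for Lef1 at 10000 ng/ml and 50.6% ± 3.8 at dose 0. The downstream one gave 64.9% ± 0.78 and 38.9% ± 2.8. A same-strand cluster without a symbol between them, chr3:130814426-130814479, is not in these shares (5.31 ± 1.18 and 17.8 ± 0.575 RPM). Against the gene's other clusters the upstream start changed by -1.93 (adjusted p = 7.9e-13), while the downstream start was not called by diffSplice (0.33, adjusted p = 0.213) and was called by edgeR on the tags, which sets a cluster against its gene's total (0.74, adjusted p = 1.07e-05).

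Foxp1 showed the same kind of shift between promoters that lie about 238 kb apart. Its upstream start fell to 25.6 ± 1.0 RPM at 10000 ng/ml, against 64.6 ± 1.2 RPM at dose 0 (-1.30, limma adjusted p = 1.04e-09). The downstream start fell by much less, to 13.9 ± 0.47 RPM against 18.7 ± 0.41 RPM (-0.40, adjusted p = 0.0228). Its share of tags in clusters named for Foxp1 was 33.9% ± 1.7 at 10000 ng/ml and 21.7% ± 0.87 at dose 0. Same-strand clusters without a symbol between these promoters are not in the shares. The largest, chr6:99046201-99046231, held 19.1 ± 1.73 RPM at 10000 ng/ml and 33.4 ± 2.32 RPM at dose 0, more than the downstream start. Whether they belong to Foxp1 was not tested. Against the other Foxp1 clusters the downstream start changed by 0.53 (diffSplice adjusted p = 0.0459) and the upstream one by -0.82 (adjusted p = 0.00214, not called by edgeR, adjusted p = 0.197).

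In Tcf7, on the minus strand of chromosome 11, 3 starts within about 1 kb carried nearly all tags. The most upstream, chr11:52096815-52096873, held 54.0 ± 3.9 RPM at 10000 ng/ml and 310 ± 11 RPM at dose 0, the middle one, chr11:52096015-52096074, 24.1 ± 2.9 and 301 ± 15 RPM, and the downstream one, chr11:52095750-52095752, 8.09 ± 1.7 and 101 ± 2.0 RPM. The middle and downstream starts changed by -3.59 and -3.498 and the upstream start by -2.501. Against the other clusters of the gene diffSplice called the middle start at -1.54 and the downstream one at -1.42. Both were still called at smaller sizes by edgeR (-0.63 and -0.67) and once clusters under 5 RPM were left out (-0.59 and -0.45). For the upstream start the comparison depends on how faint clusters are weighed: diffSplice gave -0.17 (adjusted p = 0.554), but 1.05 once clusters under 5 RPM were left out and 0.51 with edgeR (adjusted p = 0.0145), and its share of Tcf7 tags was 61.5% ± 3.3 at 10000 ng/ml against 43.2% ± 0.15 at dose 0. Satb1 drew 70.0% ± 1.3 of its tags from chr17:51971938-51971983 at 10000 ng/ml and 65.1% ± 0.23 at dose 0. Its start at chr17:51972452-51972610 fell further than the rest, to 6.56 ± 0.48 RPM against 24.0 ± 3.0 RPM (-1.17 against the other clusters, adjusted p = 4.36e-05). Bach2 had its main start at chr4:32325707-32325764, at 27.4 ± 3.6 RPM against 69.7 ± 5.8 RPM, and Bcl6 had a single cluster, at chr16:23988649-23988723.

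**Figure D3:**
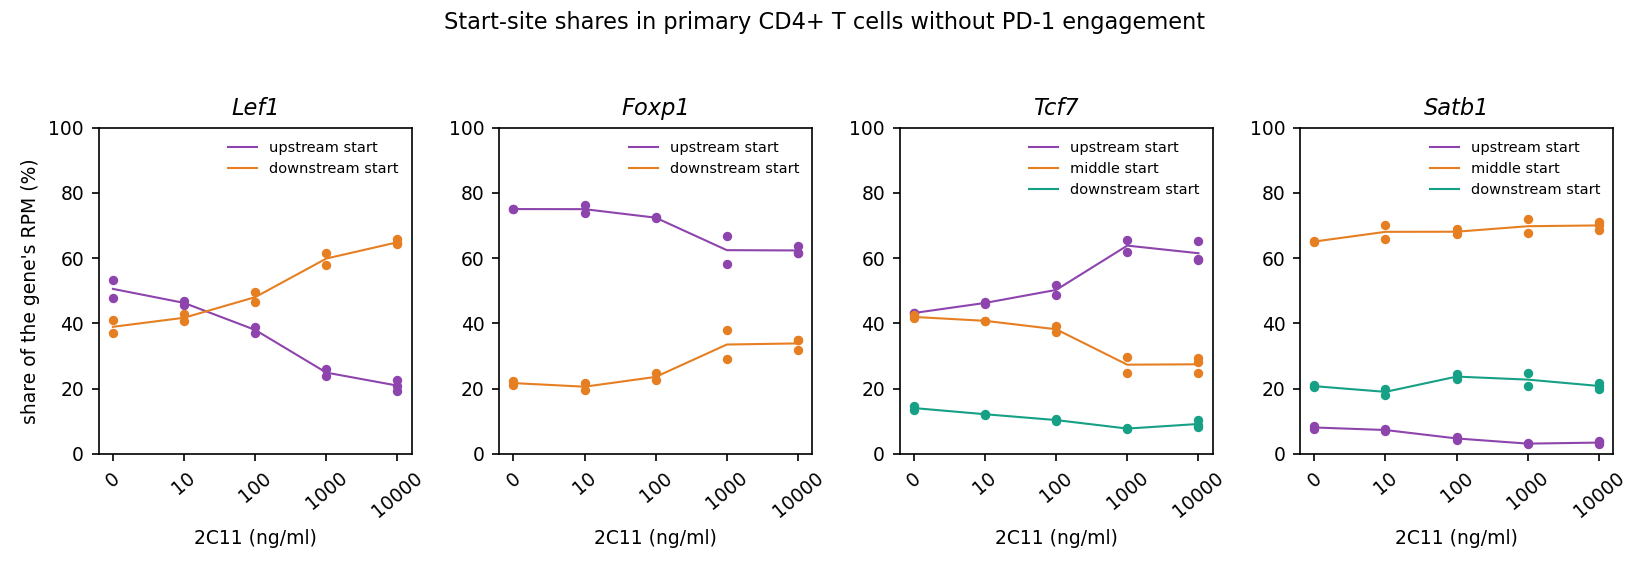
Share of the tags in clusters named for a gene (y axis, percent) given by its main clusters in each unengaged CD4 library. The x axis is the 2C11 dose in ng/ml, for Lef1, Foxp1, Tcf7 and Satb1. The upstream Lef1 start supplies 50.6% of tags at dose 0 and 20.9% at 10000 ng/ml, and the downstream Foxp1 start 21.7% and 33.9%.

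PD-1 engagement gave small average differences in the 6 genes of CD4+ cells. Averaged over the 4 doses above 0, engaged minus unengaged, limma called 3 of them, all lower: Foxp1 at -0.20 (SE 0.04, adjusted p = 0.00113), Satb1 at -0.19 (SE 0.04, adjusted p = 0.00203) and Bach2 at -0.17 (SE 0.06, adjusted p = 0.0297). Over all genes 45.6% were called, 41.2% lower, and the median gene stood at -0.14, so these 3 values lie close to the shift of the whole table. Scaling that sets the median gene near 0 (quantile normalization, or edgeR and DESeq2 on tags) called none of the 3. Lef1 (-0.11, adjusted p = 0.0669), Bcl6 (0.05, adjusted p = 0.688) and Tcf7 (0.01, adjusted p = 0.895) were not called. A limma fit with same-numbered libraries of a dose as pairs did call Lef1 lower (adjusted p = 0.0349). Tcf7 was then above the median gene, and was called higher with edgeR (0.16, adjusted p = 0.0134) and DESeq2 (0.16, adjusted p = 0.00464), but its most abundant cluster taken alone was lower (-0.17, adjusted p = 0.00366).

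At single doses 2 differences held under each of the 3 other scalings. Satb1 at 100 ng/ml stood at 197 and 244 RPM in engaged libraries, against 322 and 358 RPM in unengaged ones, without overlap (-0.63, SE 0.09, limma adjusted p = 0.000106, with 39.2% of all genes called and the median gene at -0.29). Its value was -0.47 with quantile normalization, -0.31 with edgeR and -0.30 with DESeq2. Tcf7 at 10000 ng/ml went the other way: engaged libraries held 108, 104 and 110.4 RPM, against 82.8, 85.02 and 95.8 RPM in unengaged ones, again without overlap (0.29, SE 0.07, adjusted p = 0.0152, with 8.48% called and the median gene at 0.02). It was 0.28 with quantile normalization and with edgeR and 0.24 with DESeq2. The call was lost on leaving out the unengaged library of number 1 at that dose (0.25) or the engaged one of number 3 (0.27).

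Other single-dose calls were lost under other scalings. At 100 ng/ml limma also called Bach2 (-0.46, adjusted p = 0.00744) and Foxp1 (-0.28, adjusted p = 0.0204), and quantile normalization, edgeR and DESeq2 called neither. At dose 0, where no antibody was given, engaged libraries were lower in 4 of 6 genes (14.4% of all genes called, median -0.23). Tcf7 held 583 and 571 RPM in engaged libraries, against 701 and 734 RPM in unengaged ones (-0.31). Foxp1 held 63.4 and 63.0 against 84.9 and 87.1 RPM (-0.44). Satb1 held 229 and 229 against 284 and 308 RPM (-0.37), and Bach2 75.8 and 62.2 against 90.0 and 100.1 RPM (-0.46). Quantile normalization, edgeR and DESeq2 called none of these 4. At 10 ng/ml limma called none of the 6 (0.754% of all genes; 1 of the 6 had an unadjusted p under 0.05), and at 1000 ng/ml it called Foxp1 alone (-0.29, 22.7% of all genes). There Tcf7 was at 0.11 and uncalled by limma, with the median gene at -0.17, and was called higher by edgeR (0.29, adjusted p = 0.0451) and DESeq2 (0.30, adjusted p = 0.0214). Other scalings also added calls at 10000 ng/ml. Foxp1 (-0.21, limma adjusted p = 0.0867) was called lower with quantile normalization (-0.25, adjusted p = 0.0381) and edgeR (-0.22, adjusted p = 0.0482). Satb1 (0.21, limma adjusted p = 0.0756) was called higher with quantile normalization (0.24, adjusted p = 0.0335) but not with edgeR. DESeq2 called neither. With same-numbered libraries as pairs limma also called Satb1 higher (0.21, adjusted p = 0.0335). Whether engagement acted differently under stimulation than at dose 0 was tested directly: limma called none of the 6 (0.0196% of all genes; 3 of the 6 had an unadjusted p under 0.05; edgeR and DESeq2 also called none). Beside these results, B cell markers were higher with engagement, 11 of 15 called and a median of 0.42. Their summed level was 654 to 1414 RPM in engaged and 623 to 1065 RPM in unengaged stimulated libraries. The share of tags inside listed clusters was 81.8% to 86.1% in engaged and 84.8% to 87.1% in unengaged libraries. Their part in the differences was not tested.

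**Figure D4:**
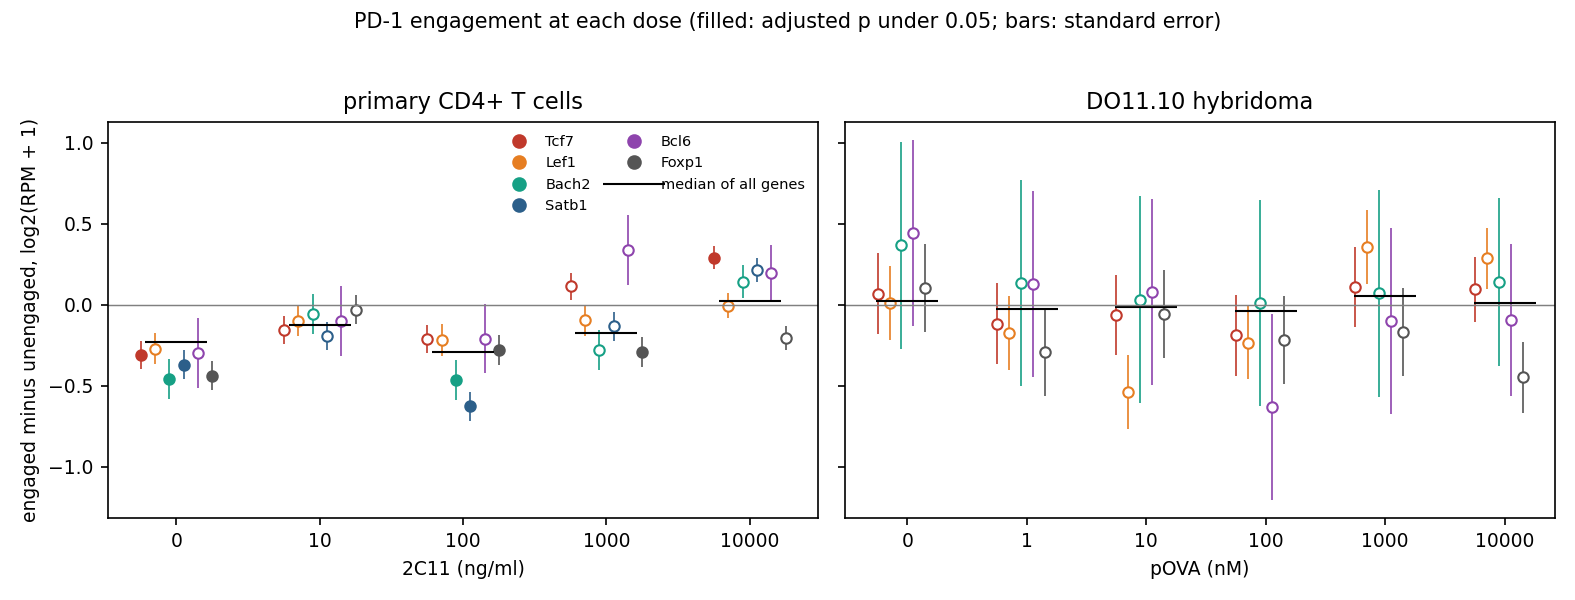
Log2 difference of RPM + 1, engaged minus unengaged, of each gene (y axis) at each dose (x axis) in CD4 cells and in the hybridoma; bars are standard errors and black dashes the median of all genes tested. In CD4 cells Satb1 reaches -0.63 at 100 ng/ml, and Tcf7 moves to 0.29 at 10000 ng/ml while the median gene is at 0.02.

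Inside Satb1 the starts did not move together with engagement (35.2% of all clusters were called). The main cluster fell (-0.27, SE 0.06, limma adjusted p = 0.0016, as a mean over doses above 0), whereas faint clusters further into the gene, chr17:51951621-51951669 and chr17:51953529-51953624, rose by 0.66 and 0.51 (adjusted p = 0.00235 and 0.0103). These 3 were also called against the rest of the gene by diffSplice (6.45% of all clusters of multi-start genes were). At dose 0 the first of the faint clusters held 4.06 and 5.99 RPM in engaged libraries and 1.93 and 2.07 RPM in unengaged ones. In Tcf7 the upstream start was lower (-0.17, adjusted p = 0.00553) and the most downstream of the 3 main starts higher (0.20, adjusted p = 0.037), though neither share change was called.

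The hybridoma behaved differently at the same genes. Without engagement 2 of 5 were called at 10000 nM pOVA, both higher, where 28.8% of all genes were called (8.09% higher) and the median gene changed by -0.18 (-0.04 with quantile normalization). Lef1 stood at 17.6 and 16.5 RPM at dose 0, 17.7 and 14.9 at 1 nM, 26.2 and 25.1 at 10 nM, 47.3 and 50.2 at 100 nM, 49.2 and 33.6 at 1000 nM, and 50.5, 36.6 and 39.4 RPM at 10000 nM. All libraries from 100 nM up were above both at dose 0, and limma called Lef1 at 100 nM (1.46, adjusted p = 0.000471; 6.03% of all genes), 1000 nM (1.21, adjusted p = 0.000899; 30.6%) and 10000 nM (1.24, SE 0.21, adjusted p = 0.000234). With engagement it held 17.4 and 17.1 RPM at dose 0, 14.8 and 13.8 at 1 nM, 18.4 and 16.2 at 10 nM, 38.7 and 44.0 at 100 nM, 70.8 and 38.5 at 1000 nM, and 64.4, 45.9 and 45.0 RPM at 10000 nM. The engaged change at 10000 nM was 1.52 (SE 0.21, adjusted p = 4.84e-05), and Lef1 was the 1 member called there (26.4% of all genes). At 1 and 10 nM without engagement limma called no member (0% and 0.0297% of all genes), Lef1 at 10 nM having an unadjusted p under 0.05.

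As a description, the midpoint of the Lef1 change was at 41.9 nM with engagement (35.8 to 47.1 on leaving out single libraries) and at 11.7 nM without (9.84 to 13.2). Each midpoint was read between its own levels at dose 0 and 10000 nM, so the end points differed. Without engagement the change was larger at 100 nM (1.46) than at 10000 nM (1.24). Whether the midpoints differ was not tested. Foxp1 rose at the highest doses: without engagement it held 7.60 and 5.19 RPM at dose 0, 10.51 and 8.39 at 1 nM, 7.02 and 9.28 at 10 nM, 6.69 and 8.86 at 100 nM, 14.6 and 9.57 at 1000 nM, and 20.9, 14.3 and 12.7 RPM at 10000 nM. The change at 10000 nM was 1.19 (SE 0.25, adjusted p = 0.00156), and with engagement it was 0.64 and was not called (adjusted p = 0.0634; 0.89 and called with DESeq2, adjusted p = 0.00517). The only hybridoma cluster named for Foxp1 was at the downstream promoter, chr6:98978253-98978347, at 15.97 ± 4.4 RPM at 10000 nM and 6.39 ± 1.7 RPM at dose 0. No hybridoma cluster on the same strand overlapped the upstream Foxp1 start, which carried most of the tags named for Foxp1 in CD4+ cells. Because the 2 tables were scaled separately, the opposite directions of Lef1 and Foxp1 in the 2 systems were not tested against each other.

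**Figure D5:**
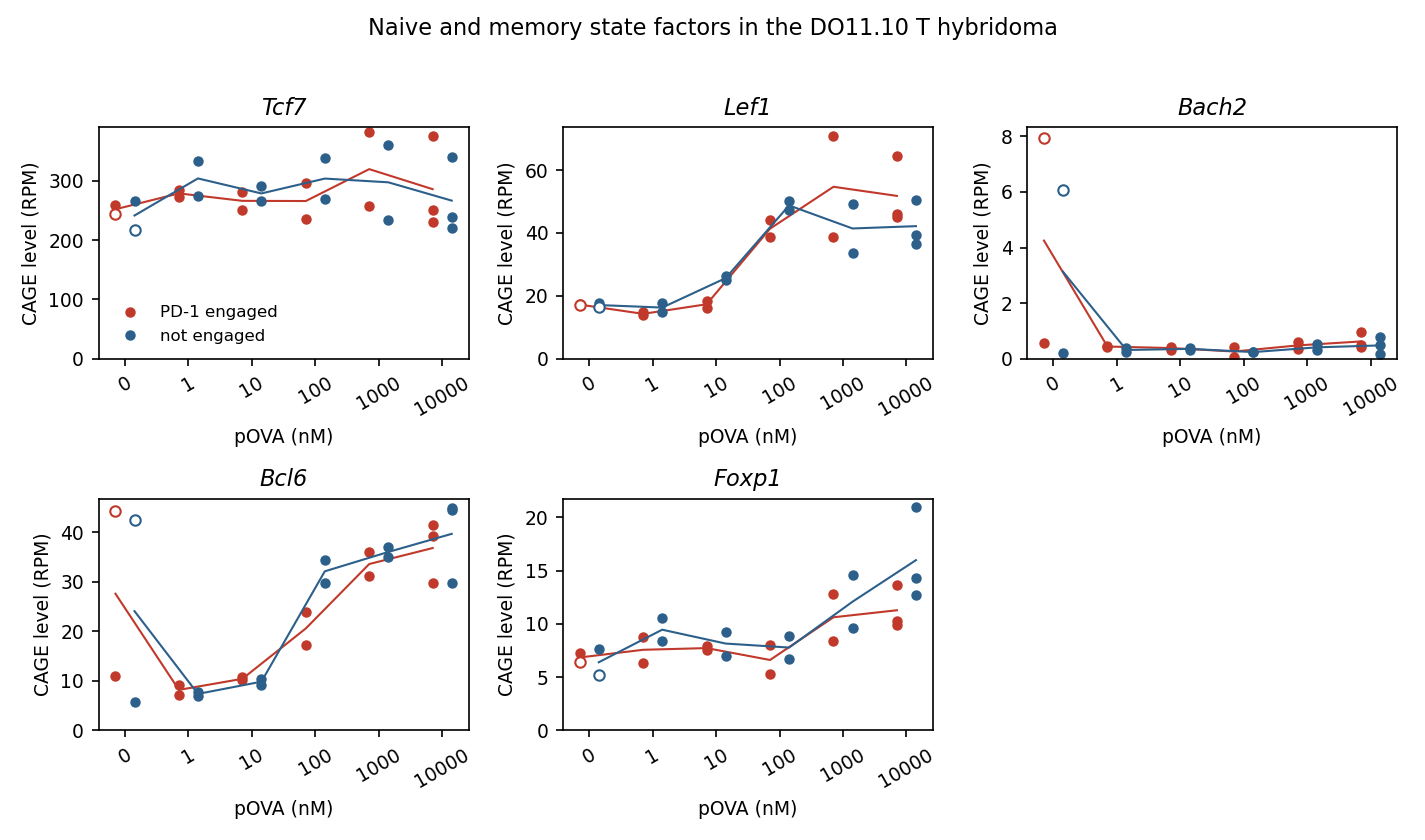
RPM of the 5 genes with rows in the hybridoma table in every library (y axis, linear scale) by pOVA dose in nM (x axis). Engaged and unengaged libraries are in separate colours, and open circles mark the dose 0 libraries of number 2. Those circles stand at 42.5 and 44.3 RPM for Bcl6 and 6.07 and 7.94 RPM for Bach2, far from the other dose 0 libraries.

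Bcl6 and Bach2 hung on those 2 libraries. Bcl6 held 10.96 RPM (number 1) and 44.3 RPM (number 2) at dose 0 with engagement, and 5.75 and 42.5 RPM without. Among stimulated libraries without engagement it was at 7.75 and 7.02 RPM at 1 nM, 9.24 and 10.46 at 10 nM, 29.8 and 34.5 at 100 nM, 35.0 and 37.1 at 1000 nM, and 44.9, 29.8 and 44.6 RPM at 10000 nM, so that every library from 100 nM up was above those at 1 and 10 nM. Against both dose 0 libraries the change at 10000 nM was 1.23 (SE 0.52) and not called (adjusted p = 0.0854), and without the dose 0 libraries of number 2 it was 2.57 (adjusted p = 6.21e-07). Without the unengaged dose 0 library of number 1 it was instead -0.12 (adjusted p = 0.855). Bach2 was near the limit of detection: outside the dose 0 libraries of number 2 its 24 libraries held 0.08 to 0.95 RPM, or 1 to 15 tags. In the 2 libraries set apart it held 7.94 RPM with engagement and 6.07 RPM without. Its change at 10000 nM was -0.99 and not called by limma (adjusted p = 0.206), while edgeR gave -2.63 (adjusted p = 0.0498) and DESeq2 -2.52 (adjusted p = 0.0397). Without those libraries no Bach2 value reached the filter of 1 RPM, so no change was detectable at this depth. The B cell markers stand high in the same 2 libraries, as given above; their part was not tested.

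Tcf7 was not called in the hybridoma. It held 340, 221 and 239 RPM at 10000 nM without engagement, against 266 and 217 RPM at dose 0, groups that overlapped (0.12, SE 0.23, adjusted p = 0.702), and its 26 libraries ranged from 217 to 382 RPM. Its starts nevertheless shifted: the cluster at chr11:52096008-52096076 rose to 72.2 ± 19 RPM, against 35.2 ± 9.9 RPM at dose 0 (1.01, limma adjusted p = 0.00926), while the most upstream one held 175 ± 42 RPM against 198 ± 23 RPM (-0.20, adjusted p = 0.522). The share of the upstream start was 65.8% ± 2.7 at 10000 nM and 82.1% ± 2.5 at dose 0 (diffSplice adjusted p = 0.00347; edgeR did not call it, adjusted p = 0.828). In Lef1 the start at chr3:130815418-130815532 gave 18.7% ± 1.4 of tags at 10000 nM and 7.33% ± 0.78 at dose 0 (1.12 against the other clusters, adjusted p = 0.000865, and called by edgeR). The 2 main Lef1 starts rose together, the upstream one to 14.7 ± 3.9 RPM against 5.99 ± 0.46 RPM and the downstream one to 13.6 ± 1.7 RPM against 6.61 ± 0.092 RPM. Of the 13 hybridoma clusters of these genes 8 were called, all higher (30% of all clusters called, 13.8% higher), and 3 share changes were called (16.8%). Without the unengaged dose 0 library of number 2 only that of Lef1 at chr3:130815418-130815532 was still called (1.07, adjusted p = 0.0241), and the Tcf7 one was not (-0.96, adjusted p = 0.0618).

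For PD-1 engagement limma called none of the 5 in the hybridoma, as a mean over doses above 0 (0.931% of all genes called; no member at an unadjusted p under 0.05; edgeR and DESeq2 also called none) or at any single dose. At 1, 10, 100, 1000 and 10000 nM 0%, 0.0396%, 0.495%, 0.0793% and 0.406% of all genes were called, and 1 member and dose pair, Lef1 at 10 nM, had an unadjusted p under 0.05. Here same-numbered engaged and unengaged libraries of a dose deviated together, and a fit with those pairs as blocks called Foxp1 lower over the stimulated doses (-0.24, adjusted p = 0.0166). That fit called 6.51% of all genes over the stimulated doses. By dose it called 5 member and dose pairs, with 0.0396%, 0.149%, 4.22%, 7.34% and 2.52% of all genes called at 1, 10, 100, 1000 and 10000 nM. Lef1 was lower at 10 nM, at 18.4 and 16.2 RPM in engaged libraries and 26.2 and 25.1 RPM in unengaged ones (-0.54, adjusted p = 0.0136), and higher at 1000 nM (0.35, adjusted p = 0.0206) and 10000 nM (0.28, adjusted p = 0.0398). Bcl6 was lower at 100 nM, at 17.2 and 24.0 RPM in engaged libraries and 29.8 and 34.5 RPM in unengaged ones (-0.63, adjusted p = 0.0198), and Foxp1 was lower at 10000 nM, at 13.6, 10.3 and 9.92 RPM against 20.9, 14.3 and 12.7 RPM (-0.45, adjusted p = 0.0301).

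Genes that accompany the naive state fell with these factors in CD4+ cells. Of 24 naive and quiescence genes, all measured, 21 were lower at 10000 ng/ml without engagement and 3 higher (Ets2 at 0.99, Slfn2 at 0.41 and Bcl2 at 0.29, named after their values were seen), with a median of -1.90 against -0.15 over all genes. The egress receptor S1pr1 changed by -4.34, the PI3 kinase inhibitor Pik3ip1 by -4.06, Tsc22d3 by -3.92 and the quiescence factor Klf2 by -3.58, and the chemokine receptor gene Ccr7 and the interleukin 7 receptor gene Il7r by -2.84 and -2.13. Of 13 measured genes of the effector programme 11 rose and none fell (median 1.38), led by Ifng at 6.05, Nfil3 at 2.32, Il2ra at 2.18 and Irf4 at 2.06. Prdm1, which encodes the BCL6 antagonist Blimp-1, rose by 0.71 and the E protein inhibitor Id2 by 0.97. In the TCF and LEF pathway 9 of 14 measured genes were lower and none higher (median -0.87), among them the pathway target Axin2 at -1.38 and the kinases Gsk3b at -1.03 and Nlk at -0.98, with the corepressor Aes at -0.95.

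These counts stand beside 27.5% of all genes higher and 40.1% lower. The partners and competitors of BACH2 split: 6 of 12 rose and 3 fell (median 0.35), with the AP-1 subunit Fosl2 at 2.69 and the small MAF genes Maff at 2.06 and Mafk at 1.34, but Jun at -1.06. Around BCL6, 2 of 11 measured genes rose, the follicular helper cytokine Il21 by 4.19 and Prdm1. In that list 5 fell, with Zbtb7b at -1.10 and the corepressor Ncor1 at -0.89 (median -0.14). Among forkhead genes 6 of 10 fell and 1 rose (median -0.55), with Foxo4 at -2.42, Foxk1 at -1.56, Foxo3 at -1.30 and Foxo1 at -0.96. Of 16 other T lineage regulators 12 fell, such as Fli1 (-1.59), Ets1 (-1.06) and Bcl11b (-1.01), and 1, Gata3, rose (1.01; median -0.79). In the hybridoma 28.8% of all genes were called, 8.09% higher and 20.8% lower. There 4 naive genes rose and 4 fell of 18 measured (median -0.33), Cd27 at 2.70 and Slfn2 at 2.67 the highest and Tsc22d3 at -1.48 and Pik3ip1 at -1.45 the lowest. The effector list had 3 higher and 1 lower of 7 (Irf4 at 3.16, Zeb2 at 2.12, Nfil3 at 1.45 and Batf at -0.86; median 0.31). There 5 of 12 BACH2 partners and competitors rose and 1 fell (Fosl2 at 2.87, median 0.28). Among the rest, 1 of 14 TCF and LEF pathway genes rose and 4 fell (Axin2 at -1.61, median -0.32). A further 1 of 8 BCL6 pathway genes rose and 2 fell (median -0.14). In the last lists 1 of 9 forkhead genes rose and 1 fell (median -0.40), and 1 of 17 other regulators rose (Runx1 at 1.11) and 5 fell (Fli1 at -1.52, median -0.41). Of Ccr7, Il7r, Klf2, Prdm1 and Id2 the hybridoma table had a row for Id2 alone (-0.17, adjusted p = 0.33).

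With PD-1 engaged, over stimulated CD4+ cells, 11 of 13 effector genes were lower and none higher (median -0.38 against -0.14 over all genes), Ifng at -1.38, Tbx21 at -0.64, Nfil3 at -0.61 and Gzmb at -0.49, with Id2 at -0.46 and Prdm1 at -0.38. Of 24 naive genes 4 were higher and 11 lower (median -0.08). Klf2 was among the higher ones (0.25, limma adjusted p = 0.0162), while Ccr7 (0.13) and Il7r (0.05) were not called, and Bcl2 at -0.42, Ets2 at -0.37, Ets1 at -0.37 and Il6ra at -0.27 were the lowest. Over all genes 4.48% were higher and 41.2% lower in this comparison. The BACH2 list had 9 of 12 lower and none higher (Fosl2 at -0.69, Maff at -0.62; median -0.34). The TCF and LEF list had 9 of 14 lower and 1 higher (median -0.26), and the BCL6 list 8 of 11 lower and 1 higher (Il21 at -0.74; median -0.31). The forkhead list had 8 of 10 lower (Foxp4 at -0.56; median -0.32) and the other regulators 10 of 16 lower and 1 higher (median -0.26). In the hybridoma, where 0.931% of all genes were called, engagement lowered 3 of 7 effector genes (Irf4 at -0.72, Zeb2 at -0.47, Nfil3 at -0.38), moved 2 of 18 naive genes (Tsc22d3 at 0.38 and Slfn2 at -0.50) and lowered Fosl2 (-0.63); limma called none in the other 4 lists.

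The genes whose levels ran closest to each factor over the 22 CD4 libraries, by Pearson correlation of log2(RPM + 1) among 4718 genes, are given as a description, since these libraries share doses. For Tcf7 they were Akna and Frmd8 (both r = 0.997) and Cdkn1b (0.996), for Lef1 Dgka and Frmd8 (both 0.994) and Sh2d3c (0.993), and for Foxp1 Myo1g (0.979), Mepce (0.978) and Gpr132 (0.977). Bach2 ran closest to Slain1 (0.976), Ddx6 (0.975) and Stk24 (0.974), Satb1 to Oxct1 (0.958), Trappc8 (0.934) and Ppp2r5a (0.928), and Bcl6 to Mdh1 (0.879), Dusp10 (0.846) and Id3 (0.846). Over the 26 hybridoma libraries and 4626 genes the closest were Aup1 (0.925), Tgfbr2 (0.901) and Caprin1 (0.900) for Tcf7, Ptger4 (0.954), Ier2 (0.953) and Mmd (0.953) for Lef1. They were Rapgef6 (0.949), Pion (0.946) and Nfkb2 (0.9397) for Bcl6. They were Mtmr14 (0.917), Prkcb (0.909) and Dock2 (0.901) for Bach2, and Pafah1b2 (0.892), Mob1b (0.866) and Slc38a1 (0.859) for Foxp1. The Bach2 correlations there rest mainly on the dose 0 libraries of number 2, since Bach2 was at most 0.95 RPM in all others. No gene named here was among the closest 3 in both systems for the same factor.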

How the data were processed

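CAGE libraries were made from total RNA extracted with TRIzol, per the labels' protocols. The deposited tables give RPM values, tag counts scaled by the authors to the library total, for each tag cluster; the submitters' processing notes name BWA 0.7.12, HISAT2 2.0.5 and mm9, without their roles, and how clusters were called was not stated. Clusters with 1 symbol were summed per gene; clusters without a symbol or with several (4477 and 356 of 18025 in the hybridoma, 3643 and 371 of 17272 in CD4) were left out of gene sums. The main test was limma (3.58.1, R 4.3.3) with a mean trend on log2(RPM + 1), 1 mean per group, features with at least 1 RPM in 2 libraries, two-sided, Benjamini-Hochberg adjusted over 10094 (hybridoma) and 10217 (CD4) genes and called under 0.05. A fold change on this scale understates changes of low genes. Start use was tested with limma diffSplice. RPM steps gave whole tags for 100% of low values (tolerance 0.1), so edgeR 4.0.16 and DESeq2 1.42.0 were run on recovered tags as alternatives, and the limma tests of genes and start use were checked on simulated data. The genes and gene lists were chosen with earlier results of these data known. All 6 genes are named, with the 3 genes closest to each, up to 4 called genes per list by size, and Ccr7, Il7r, Klf2, Prdm1 and Id2; 1 further gene that the rule names is not reported here. Engaged and unengaged hybridoma libraries of 1 dose and number deviated together (13 of 13 correlations, 0.279 to 0.611) and were treated as pairs in a second fit. Where both groups held 2 libraries, the 2 numbers of a dose give the same correlation by construction, so these are not 13 separate values.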

Additional observations from a re-analysis of the deposited data

Results flagged for a closer look

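Lef1 and Foxp1 moved in opposite directions in the 2 systems at the top dose against dose 0. Lef1 changed by 1.52 in the hybridoma and by -1.78 in CD4+ cells with engagement, and by 1.24 and -2.05 without. Foxp1 changed by 0.64 in the hybridoma (not called, limma adjusted p = 0.0634) and by -0.82 in CD4+ cells with engagement, and by 1.19 and -1.05 without. The hybridoma values of Foxp1 come from its downstream promoter alone, while those of CD4+ cells sum clusters at both promoters. The difference between the systems was not tested, because the 2 tables were scaled separately.

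A cluster without a symbol on the strand opposite Lef1, chr3:130814863-130814991 in mm9, was higher at 10000 nM than at dose 0 in the hybridoma. It held 5.35 ± 0.86 RPM at 10000 nM and 0.725 ± 0.12 RPM at dose 0 with engagement (1.87), and 4.81 ± 0.88 and 0.730 ± 0.28 RPM without (1.75; SD, n = 3 and 2).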

How the results depend on the processing

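Counts of called members and of their clusters are given further below. The other 330 values, which include counts of called genes in the lists and over all genes, were recomputed 10777 times. Of these, 10341 kept their side of the threshold (counts: stayed within 1.5 times), 140 lost the call and 113 gained one. A further 177 counts moved by more, and in 6 a called value changed sign. A further 169 sign changes, in 81 values, were of values called in neither fit. In 12 of these both values were past 0.3 in size: 10 were Bcl6 and 1 Bach2 in the hybridoma on leaving out dose 0 libraries, and 1 was a Tcf7 start share there with edgeR. The 6 with a call were the share change of the upstream Tcf7 start in CD4+ cells (1.05 with a 5 RPM filter, 0.51 with edgeR), Foxp1 with engagement at 100 ng/ml (0.051 with quantile normalization, 0.019 with edgeR, 0.0062 with DESeq2) and Tcf7 with engagement over stimulated doses (-0.17 from its most abundant cluster). In the hybridoma, 1 member was called for stimulation with engagement, against 2 with quantile normalization, with the replicate number as a block and without both dose 0 libraries of number 2, and 3 with edgeR and with DESeq2. Of member and dose pairs 5 were called, against 8 with DESeq2, and 3 share changes, against 1 without both dose 0 libraries of number 2. The replicate block on pairs called 1 member for engagement and 5 by dose, against 0. For engagement in CD4+ cells, 3 members were called over stimulated doses, against 0 with quantile normalization, 5 with the most abundant cluster, and 1 each with edgeR and DESeq2. By dose 9 pairs were called, against 4, 4 and 3 with quantile normalization, edgeR and DESeq2. The causes were not tested. Leaving out 1 library gave 1 to 2 members for hybridoma stimulation with engagement (2 without the engaged or unengaged dose 0 library of number 1), 4 to 12 pairs by dose (12 without the unengaged dose 0 library of number 1) and 1 to 3 share changes (1 without the unengaged dose 0 library of number 2). It gave 5 to 11 pairs for engagement by dose in CD4+ cells (5 without either unengaged dose 0 library or the engaged one of number 2). A group left with 1 library was assumed to vary like the others. In CD4+ cells library numbers did not pair libraries throughout (4 of 11 and 6 of 16 correlations over 0.1). Engaged and unengaged libraries of a number did deviate together at 1000 ng/ml (0.355) and, for numbers 2 and 3, at 10000 ng/ml (0.329 and 0.186). A replicate block there called 4 members for engagement and 13 pairs by dose. Counting clusters with several symbols was not run, since the tables do not name those symbols. Depth limits Bach2 in the hybridoma to 1 to 15 tags outside 2 libraries.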

Other observations

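Within 1 kb of the 6 genes' spans, 18 clusters in CD4+ cells had no symbol. Without engagement 10 of them were lower at 10000 ng/ml than at dose 0 and none was higher, where 64.5% of all clusters were called and 38.2% were lower. On the strand opposite Satb1, chr17:51972092-51972117 held 9.06 ± 1.28 RPM at 10000 ng/ml and 34.3 ± 0.170 RPM at dose 0 (SD, n = 3 and 2; -1.82, limma adjusted p = 1.6e-09). The cluster opposite Lef1, chr3:130814885-130815005, held 0.985 ± 0.223 and 6.77 ± 0.640 RPM (-1.97, limma adjusted p = 6.37e-07). With PD-1 engaged, as a mean over stimulated doses, 4 faint same-strand clusters within Satb1 were higher, by 0.50 at chr17:51954570-51954672, 0.67 at chr17:51961731-51961731, 0.53 at chr17:51964072-51964128 and 0.62 at chr17:51970090-51970122, while the main Satb1 start was lower (-0.27). These clusters were chosen after their values were seen.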
